A study of Mus musculus with 14 samples.

Results

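The expression of 33 genes of blood coagulation and fibrinolysis was examined in mouse liver, out of 19747 genes that had a probe with a RefSeq name. The genes were taken as a fixed list of clotting factors, their cofactors, the fibrinogen chains, anticoagulants, fibrinolytic proteins, enzymes of the vitamin K cycle and related serine proteases, and each was read from its probe with the highest signal. All 33 genes had at least 1 probe, and 10 had more than 1. Counts of members refer to the brightest probe, and results of a second probe that differ are given with the gene. For 32 of the genes the probe was well above background on every array of every group, and these are the genes tested below. Plau, which encodes the urokinase plasminogen activator, was not well above background on any array, so that no ratio is given for it.

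Most proteins of the clotting cascade are made by hepatocytes and secreted into plasma. Tissue factor on cell surfaces binds factor VII and starts the cascade, the contact system of factor XII, factor XI, prekallikrein and kininogen provides a separate way in, and thrombin at the end of the cascade cleaves fibrinogen to fibrin. Antithrombin, heparin cofactor II, the protein C system and tissue factor pathway inhibitor restrain the cascade, and plasmin, formed from plasminogen, dissolves the clot.

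Liver RNA was from male and female CD-1 mice aged 3, 4 or 8 wk, none of which carried a labelled treatment or genetic change. The 6 groups are named M3, M4, M8, F3, F4 and F8 by sex and age in weeks. Each group had 2 pools of RNA. A pool combined 5 livers at 3 wk of age and 6 livers at the older ages, and 2 pools of different groups were hybridized together on each Agilent 2-colour array. Of the 7 comparisons, 3 set male against female liver at one age (M8/F8, M4/F4 and M3/F3) and 4 set 8 wk against a younger age (M8/M3 and M8/M4 in male liver, F8/F3 and F8/F4 in female liver). Each had 2 arrays, and the dyes were exchanged between both arrays, so that the pool and the dye orientation changed together. The number of arrays limits the precision of every value, and the mice within a pool cannot be told apart. Values are log2 ratios of the first group over the second, given for replicate 1 and replicate 2 and as a mean (n = 2 arrays) ± SE of the model. The SE came from 1 estimate of the spread per probe over all 14 arrays, after a term for the dye. It is therefore not the spread of the 2 arrays shown, which can be much wider. In liver RNA as a whole, fewer cells of a type and less RNA per cell cannot be told apart.

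Between 55.2% and 77.2% of the spots in a channel were well above background, and no spot was saturated. All 10 hepatocyte markers examined, among them Alb and Ttr, were well above background on every array. Xist was lower in male liver in all 3 sex comparisons (log2 ratios -5.32, -5.95 and -6.65), and Ddx3y was higher (6.56, 6.29 and 6.58), so that the direction of the ratios matched the labels. A gene passed the test at an adjusted p below 0.05 (limma, Benjamini-Hochberg), and it was called up regulated or down regulated if its ratio was also above 1.5 or below the inverse of 1.5. The sex arrays and those of M8/M3 were scanned on one day, and the other age arrays on another. Pools were shared between comparisons, so the 7 comparisons are not independent.

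Few of the coagulation genes were regulated by 1.5-fold or more. F3, the gene for tissue factor, was up regulated in female liver between 3 or 4 wk and 8 wk and, near the fold threshold, in male liver between 4 and 8 wk. Tfpi, whose product blocks the complex of tissue factor and factor VIIa, was down regulated in male liver between 3 and 8 wk. No member was called between the sexes at any age. The sex differences of the brightest probes that passed the test without the fold threshold were all lower in male liver, and they passed at 4 and 8 wk and not at 3 wk.

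**Figure D1:**
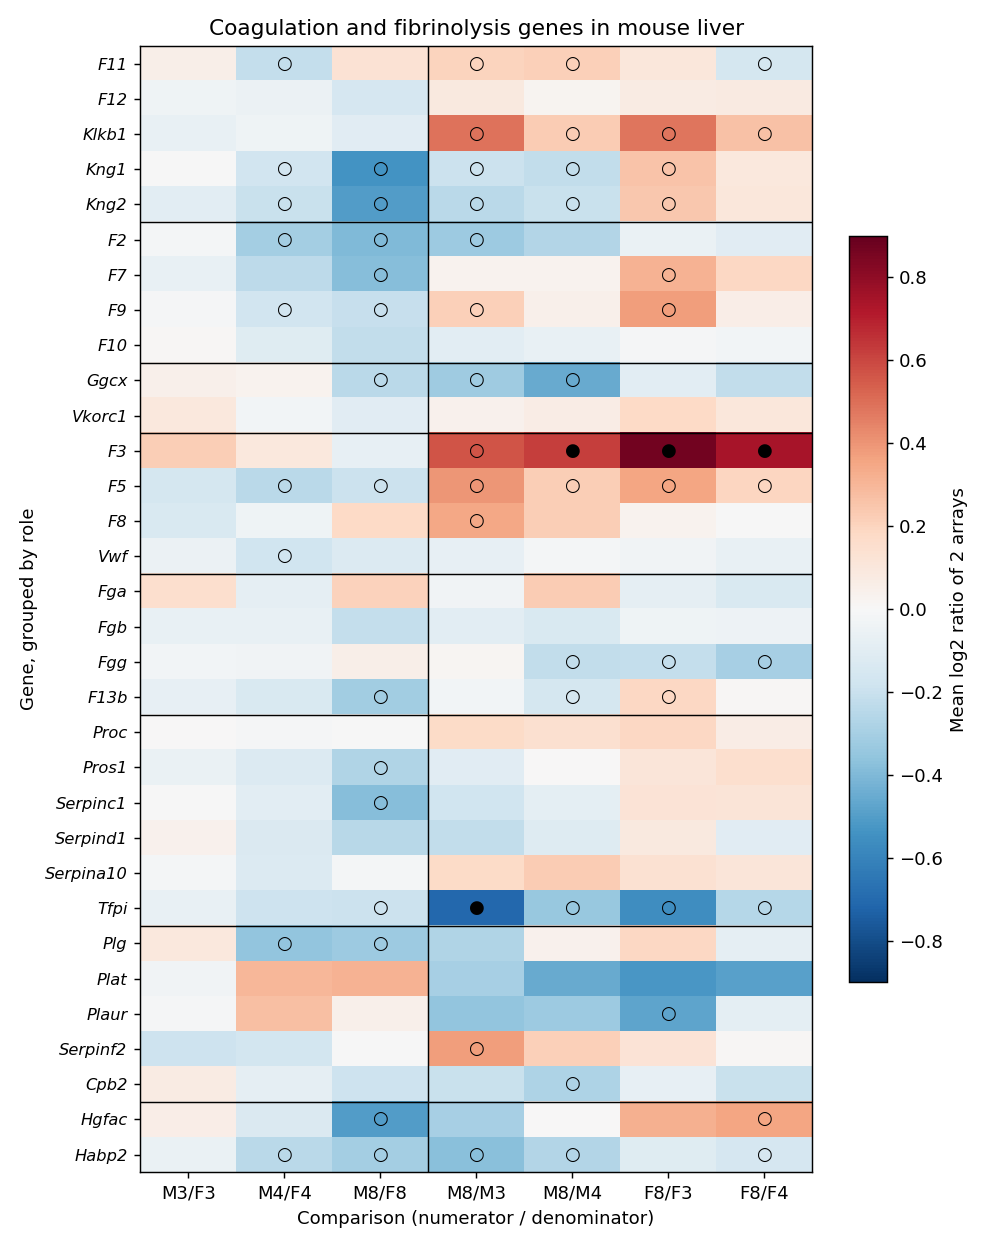
Mean log2 ratio of the 32 tested coagulation and fibrinolysis genes (rows, separated by role) in the 7 comparisons (columns). Colour gives the mean of 2 arrays, filled circles mark genes called with the fold threshold and open circles genes that passed the adjusted p alone. Filled circles are seen in F3 (3 comparisons) and Tfpi (1 comparison), and the open circles of M4/F4 and M8/F8 all lie in the colour for lower in male liver.

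F3 had log2 ratios of 0.80 and 0.45 in M8/M4. In female liver the arrays of F8/F3 gave 0.87 and 0.87, and those of F8/F4 gave 0.93 and 0.56. All of these arrays showed a higher level at 8 wk than at the younger age. The means were 0.62 ± 0.07 (adjusted p = 0.00231) in M8/M4, 0.87 ± 0.07 (adjusted p = 0.0007) in F8/F3 and 0.74 ± 0.07 (adjusted p = 0.0012) in F8/F4. The call in M8/M4 was lost below the fold threshold with normexp and loess (0.56) and without its replicate 1 (0.53), although the adjusted p still passed. In M8/M3 the arrays gave 0.68 and 0.45, with a mean of 0.56 ± 0.07 (adjusted p = 0.00334), and the ratio of 1.48 fell just short of the fold threshold. A second probe of F3 was called in all 4 age comparisons, with means of 0.63 and 0.67 in male liver and of 0.85 and 0.85 in female liver, from 3 and from 4 wk. Between 3 and 4 wk, as implied by the age ratios, F3 differed by -0.06 in male and 0.12 in female liver, neither past the test.

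The rise of F3 did not pass the test of a difference between the sexes. The male minus female difference was -0.30 for 3 to 8 wk (adjusted p = 0.179) and -0.12 for 4 to 8 wk (adjusted p = 0.714). F3 ratios of male over female liver were 0.22 at 3 wk, 0.09 at 4 wk and -0.07 at 8 wk, and none passed.

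Tfpi moved the other way. Its ratios were -0.51 and -0.90 in M8/M3 (mean -0.70 ± 0.05, adjusted p = 0.000412), which was the only comparison in which it was called, and with normexp and loess (-0.58) it fell short of the fold threshold. In F8/F3 the arrays gave -0.42 and -0.69 (mean -0.56 ± 0.05, adjusted p = 0.000928), which passed the test below the fold threshold. The ratios from 4 to 8 wk were smaller, with means of -0.34 in M8/M4 (adjusted p = 0.00579) and -0.25 in F8/F4 (adjusted p = 0.0179), and all 8 age arrays were below 0. A second Tfpi probe was called in both 3 to 8 wk comparisons, at -0.70 in male and -0.61 in female liver. The implied change from 3 to 4 wk was -0.36 in male and -0.30 in female liver, neither past the test. With the replicate block through shared pools, the implied fall in male liver passed, and with a fit of 6 group means it passed in both sexes. The male minus female difference of the fall was -0.15 for 3 to 8 wk and did not pass (adjusted p = 0.35).

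**Figure D2:**
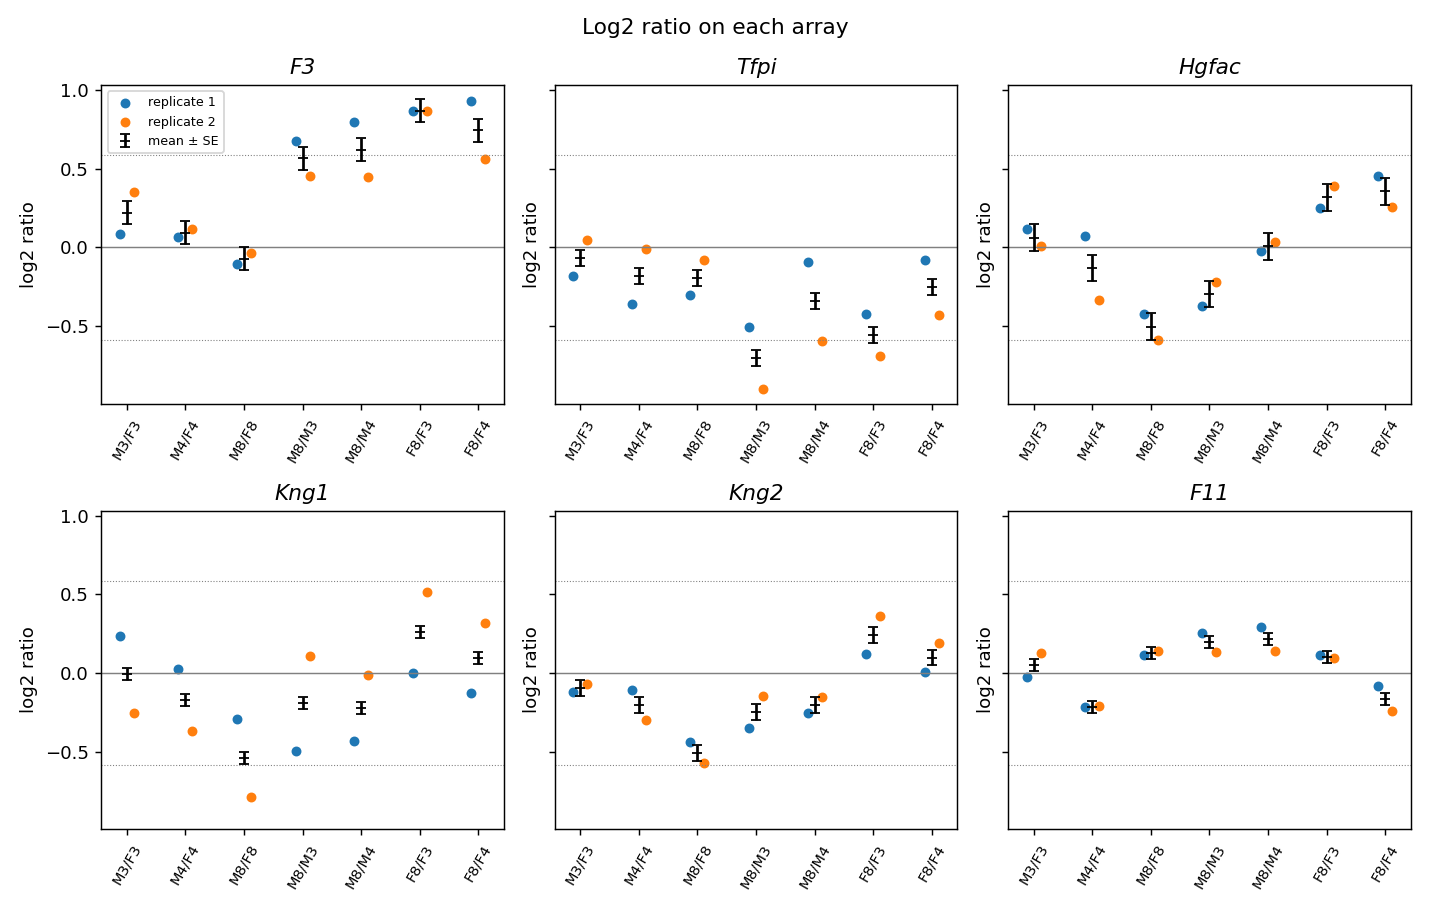
Log2 ratio (vertical axis) of 6 genes in the 7 comparisons (horizontal axis), with each replicate array as a point and the mean with its SE in black. Dotted lines mark the 1.5-fold threshold in each direction. F3 lies above 0 and Tfpi below 0 on all 8 age arrays, while Hgfac and Kng2 lie below 0 in M8/F8 and M8/M3 and above 0 in F8/F3.

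Markers of other cells changed over the same ages. All 10 proliferation markers were called lower in M8/M3 (median log2 ratio -3.82) and F8/F3 (median -3.30), and so were 7 of 8 neutrophil and myeloid markers (medians -2.06 and -2.64) and 6 of 9 erythroid markers (medians -1.35 and -1.51). In M8/M3, 1 erythroid marker was called higher, and the highest ratio of that list was 1.37. Stellate and fibroblast markers were called lower in 3 of 8 cases in M8/M3 and 2 of 8 in F8/F3, and macrophage markers in 2 and 1 of 7. Of the megakaryocyte and platelet markers, 5 of 9 tested were called lower in M8/M3 (median log2 ratio -1.44, range -2.21 to 0.05) and 5 of 8 in F8/F3 (median -1.38). None of the 8 vascular endothelial markers was called in M8/M3 (median -0.12) or F8/F3 (median -0.21), and of 9 sinusoidal endothelial markers 2 were called lower in M8/M3 and 1 in F8/F3. The part of these cells in the age ratios of the members was not tested.

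The counts of calls in the age comparisons can be read against all genes. In M8/M3, 0 of 32 members were called higher and 1 was called lower, whereas 7.82% of all tested genes were called higher and 10.1% lower. In M8/M4, 1 member was higher and 0 were lower, against 4.47% and 6.42% of all genes. F8/F3 also gave 1 higher and 0 lower, against 5.07% and 6.68%, and F8/F4 gave 1 higher and 0 lower, against 2.29% and 3.74%. By the adjusted p alone, 7 members rose and 6 fell in M8/M3, where the shares of all genes were 21.7% and 20.3%. In M8/M4, 4 rose and 8 fell (background 14.8% and 14.9%), in F8/F3 8 rose and 3 fell (17.0% and 16.7%), and in F8/F4 4 rose and 4 fell (10.6% and 10.7%). Thus 9.4% to 25.0% of the members passed in a direction, against 10.6% to 21.7% of all genes. Without the dye term, 6 rose and 3 fell in M8/M3, and M8/M4 gave 1 rise and 1 fall. The female counts in that fit were 4 and 0 from 3 wk and 1 and 1 from 4 wk, and 7.44% to 17.4% of all genes passed in a direction. With 6 group means in place of 7 comparisons there were more, with 8 rises and 11 falls in M8/M3, 7 and 11 in M8/M4, and 12 and 5 (from 3 wk) and 7 and 7 (from 4 wk) in female liver, where 18.0% to 29.9% of all genes passed in a direction over these comparisons. Leaving out 1 array in turn gave 4 to 8 rises and 2 to 6 falls in M8/M3 (fewest without its replicate 1). The ranges for M8/M4 were 1 to 4 rises and 3 to 7 falls. F8/F3 had 5 to 9 rises and 1 to 3 falls, and F8/F4 had 1 to 4 rises and 0 to 4 falls. Tfpi fell in every such fit of M8/M3, M8/M4 and F8/F3, and Habp2 in those of both male comparisons. For 3 to 4 wk, no member was called in male liver (background 0.113% higher and 0.179% lower) or in female liver (0.0266% and 0.0665%). In limma without adjustment, 7 and 8 of the 32 members had p below 0.05 in these implied changes of male and female liver (17.4% and 14.3% of all genes). With the replicate block through shared pools, F11 and F9 passed as higher at 4 wk than at 3 wk in female liver (0.725% of all genes), and Tfpi as lower in male liver (2.28%). With 6 group means, F9 and Klkb1 passed as higher and Tfpi as lower in male liver (5.09% and 4.99% of all genes). Female liver gave F11, F13b and F9 as higher and Tfpi as lower in that fit (3.22% and 3.68%).

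Within the contact and kinin system, Klkb1, the gene for prekallikrein, rose in both sexes. Its ratios were 0.60 and 0.38 in M8/M3 (mean 0.49 ± 0.06, adjusted p = 0.00284) and 0.63 and 0.34 in F8/F3 (mean 0.48, adjusted p = 0.00298). From 4 to 8 wk the means were 0.23 in M8/M4 (0.35 and 0.11, adjusted p = 0.0494) and 0.26 in F8/F4 (0.45 and 0.07, adjusted p = 0.0307). Both passed narrowly and were lost without the dye term and when replicate 1 of F8/F4 or any array of M8/F8, M8/M3, M8/M4 or F8/F3 was left out. In M8/M4 the rise was also lost with the replicate block through shared pools, with the slide as a block and without either array of M3/F3. The male minus female difference of Klkb1 was 0.01 for 3 to 8 wk. F12, the factor XII gene that opens the contact pathway, lay between -0.15 and 0.09 in all 7 comparisons and passed in none.

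F11, which encodes factor XI, differed between the sexes at 4 wk. It was lower in male liver, with -0.22 and -0.21 on the arrays (mean -0.21 ± 0.04, adjusted p = 0.0115), and gave 0.12 and 0.14 at 8 wk (mean 0.13, adjusted p = 0.0699). It then rose in male liver until 8 wk (mean M8/M4 0.22, adjusted p = 0.0111) and fell in female liver (mean -0.16, adjusted p = 0.0335). Both the rise and the fall were lost without the dye term, and the fall also with the slide as a block and with normexp and loess. The difference between these changes was 0.38 on the arrays of replicate 1 and 0.38 on those of replicate 2 (adjusted p = 0.0282), which passed the test below the fold threshold. It was the only member for which the change from 4 to 8 wk was more positive in male liver and passed. This result of F11 was lost without the dye term, with the slide as a block, with normexp background correction and loess, and when any array of M8/M3, M8/M4 or F8/F4 was left out.

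Among the vitamin K dependent factors, F9, the factor IX gene, rose from 3 to 8 wk in both sexes. It had 0.21 and 0.22 in M8/M3 (mean 0.22, adjusted p = 0.00705), and female liver gave 0.43 and 0.33 (mean 0.38, adjusted p = 0.000878), and from 4 to 8 wk its means were 0.04 and 0.06. F7, the factor VII gene, rose in F8/F3 (0.15 and 0.48, mean 0.31, adjusted p = 0.0294) and had a mean of 0.03 in M8/M3. F2, the prothrombin gene, passed as lower in M8/M3 (-0.56 and -0.09, mean -0.32, adjusted p = 0.0337) and had a mean of -0.06 in F8/F3. Both results were lost without the dye term and with the slide as a block. The result of F7 was also lost without replicate 2 of F8/F3 or either array of F8/F4. That of F2 was lost when any array other than those of M8/F8 and M8/M4 was left out. For neither gene did the male minus female difference of the change from 3 to 8 wk pass. F10, the factor X gene, had means between -0.22 and 0.01 from its brightest probe, which passed in no comparison, and neither of its probes passed with age. Ggcx, the carboxylase that modifies these factors, fell in male liver, with -0.40 and -0.24 in M8/M3 (mean -0.32, adjusted p = 0.0146) and -0.53 and -0.37 in M8/M4 (mean -0.45, adjusted p = 0.0038). In female liver its means were -0.09 in F8/F3 and -0.23 in F8/F4 (adjusted p = 0.411 and 0.0518), neither past the test, but the fall in F8/F4 passed with either replicate block and with the slide as a block. The sex difference of the change did not pass (adjusted p = 0.222 and 0.313). Vkorc1, the reductase that recycles vitamin K, stayed between -0.10 and 0.18 and passed in none.

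Of the cofactors, the brightest probe of F5, which encodes factor V, rose in all 4 age comparisons. Its means were 0.40 in M8/M3 (adjusted p = 0.00197), 0.22 in M8/M4 (adjusted p = 0.0195), 0.36 in F8/F3 (adjusted p = 0.00309) and 0.19 in F8/F4 (adjusted p = 0.0333), with all 8 arrays above 0. A second F5 probe was also above 0 on all 8 arrays, with means of 0.42, 0.17, 0.20 and 0.09, but passed in none (adjusted p = 0.0514, 0.442, 0.34 and 0.762). With the mean over all probes, F5 passed from 3 to 8 wk and not from 4 to 8 wk. F8, the factor VIII gene, rose in M8/M3 alone (0.50 and 0.20, mean 0.35, adjusted p = 0.0248), and its probes disagreed, since a second probe was called lower in F8/F3 (-0.65) and F8/F4 (-0.71) where the first gave 0.03 and -0.01. In M8/M3 the second F8 probe gave 0.15 and did not pass (adjusted p = 0.53). Vwf, the gene of the carrier of factor VIII, is a product of endothelium and had age ratios between -0.07 and -0.02.

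The fibrinogen chains showed no call from their brightest probes. Fgb had means between -0.21 and -0.04 over the 7 comparisons and passed in none, while Fgg passed as lower in M8/M4 (mean -0.22) and in both female age comparisons (means -0.22 and -0.30). In these 3 comparisons the arrays of Fgg had opposite signs, such as -0.65 and 0.05 in F8/F4. Fgg passed in none of them without the dye term or with normexp and loess. With the replicate block through shared pools, and with the slide as a block, it passed in F8/F4 alone. F13b, the carrier subunit of factor XIII, fell in M8/M4 (mean -0.16, adjusted p = 0.0401) and rose in F8/F3 (mean 0.18, adjusted p = 0.0231). The fall was lost without the dye term, with the replicate block through shared pools, and with normexp and loess. It was also lost when any array other than those of M3/F3 and replicate 1 of M8/M4 was left out. The rise was lost without the dye term and without either array of F8/F3. For F13b the male minus female difference did not pass for 3 to 8 wk or for 4 to 8 wk.

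Both probes of Fga, the gene of the fibrinogen alpha chain, were assigned to the same RefSeq accession and gave different results. The brightest gave -0.56 and 0.49 in M8/M3 and lay at -0.14 and -0.03 in F8/F3, with means between -0.14 and 0.23 in the 4 age comparisons. The second gave -1.30 and -1.53 in M8/M3 and -1.29 and -1.22 in M8/M4. In female liver it gave -1.09 and -1.39 for F8/F3, and -1.04 and -1.13 for F8/F4. All 8 age arrays of the second probe were below -1, and its means of -1.42, -1.25, -1.24 and -1.09 were called down regulated (adjusted p = 0.000562, 0.000874, 0.000906 and 0.00144). Between the sexes the second probe had means of -0.01, -0.12 and -0.29 at 3, 4 and 8 wk, and none passed. No age change can therefore be assigned to Fga as a gene from these arrays. The transcript region of each probe was not given in the sources used here.

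**Figure D3:**
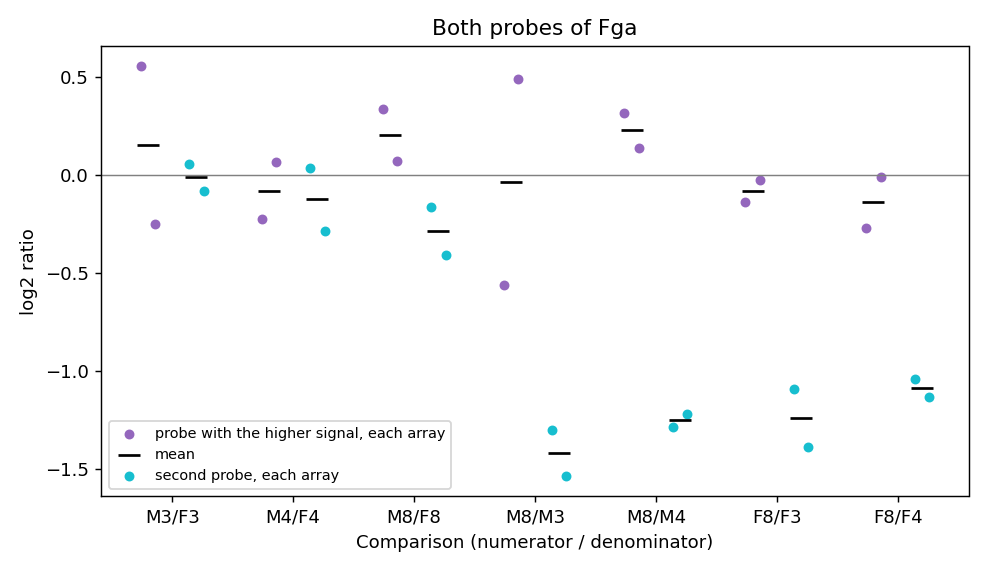
Log2 ratio (vertical axis) of both Fga probes in the 7 comparisons (horizontal axis), with each array as a point and the mean as a black bar. The second probe lies between -1.04 and -1.53 on the 8 age arrays, while the probe with the higher signal lies between -0.56 and 0.49 on them.

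Among the anticoagulants other than Tfpi, no brightest probe passed the test in any age comparison. Serpinc1, the antithrombin gene, had means of -0.18 in male (M8/M3) and 0.12 in female (F8/F3) liver, and Serpind1, the gene of heparin cofactor II, had -0.22 and 0.09. Proc (protein C) gave 0.17 and 0.19, and Serpina10, the gene of the protein Z dependent inhibitor, gave 0.17 and 0.14. Pros1, which encodes the protein S cofactor of protein C, gave -0.10 and 0.11. None of these 10 ratios passed the test. In F8/F3, Proc passed as higher without the dye term, with the simple replicate block, with normexp and loess, and with the mean over all probes. It passed in both sexes with 6 group means and with adjustment within each comparison, but in neither with the replicate block through shared pools or the slide as a block. Serpinc1 passed as lower in M8/M3 with 6 group means, with adjustment within each comparison and with the mean over all probes. A second Serpina10 probe gave 0.18 in F8/F3, at the edge of the threshold (adjusted p = 0.04998).

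In the fibrinolytic group, Plg, the plasminogen gene, had -0.27 in male and 0.19 in female liver from 3 to 8 wk, neither past the test. Plat, the tissue plasminogen activator gene, gave ratios below 0 on all 8 age arrays, between -0.68 and -0.12, but with a larger error than most members (SE 0.16), and it did not pass (lowest adjusted p = 0.081, in F8/F3). It passed as lower in M8/M4, F8/F3 and F8/F4 with the simple replicate block and with the slide as a block, and not with the replicate block through shared pools. Plaur, the urokinase receptor gene, passed as lower in F8/F3 alone (-0.42 and -0.54, mean -0.48, adjusted p = 0.043), and this was lost with either replicate block, with the slide as a block and with normexp and loess. Serpinf2, which encodes the plasmin inhibitor alpha 2-antiplasmin, rose in M8/M3 (0.53 and 0.22, mean 0.37, adjusted p = 0.0105). Cpb2, the carboxypeptidase that protects fibrin from plasmin, fell in M8/M4 (-0.21 and -0.34, mean -0.28, adjusted p = 0.044). This was lost without the dye term, with normexp and loess, and when any array other than those of M8/F8 and replicate 1 of M8/M4 was left out.

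Sex differences were then examined at each age. In M3/F3, 0 of 32 members passed the test in either direction (background 1.24% higher and 1.65% lower by the adjusted p alone, and 0.180% and 0.337% with the fold threshold). Unadjusted limma p-values were below 0.05 for 3 members (11.9% of all genes), and the error-weighted average called 0. In M4/F4, 0 members were higher and 9 lower by the adjusted p alone, against 3.47% and 4.46% of all genes, and 0 were called with the fold threshold (background 0.619% and 0.971%). In M8/F8, 0 were higher and 14 lower, against 10.3% and 11.6%, and again 0 were called with the fold threshold (background 2.66% and 3.74%). The error-weighted average called 0 members at 4 or 8 wk, while unadjusted limma p-values were below 0.05 for 13 and 22 members (21.0% and 40.0% of all genes).

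The members lower in male liver thus made up 28.1% of those tested at 4 wk and 43.8% at 8 wk. The median ratio of the 32 members was -0.02 in 3 wk liver, -0.12 in 4 wk liver and -0.19 in 8 wk liver, while the median of all tested genes was 0.00 at each age. Mean ratios were above 0 for 11, 4 and 6 members at 3, 4 and 8 wk. Both arrays were below 0 for 8 members in M3/F3 and for 19 at each later age. These are differences of at most 1.28-fold at 4 wk and 1.45-fold at 8 wk.

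The largest adult differences were those of Kng1, Kng2 and Hgfac. The first pair encode kininogens, the carriers of kallikrein and the source of bradykinin. In M8/F8, Kng1 gave -0.29 and -0.79 (mean -0.54 ± 0.04, adjusted p = 0.000383) and Kng2 gave -0.44 and -0.57 (mean -0.50 ± 0.05, adjusted p = 0.00125). All 4 values were below 0. At 4 wk the means were -0.17 for Kng1 and -0.20 for Kng2, and both passed, but the arrays of Kng1 gave 0.03 and -0.36. At 3 wk the means were -0.01 and -0.09. A second Kng1 probe also passed as lower, at a smaller -0.36 in M8/F8 (adjusted p = 0.00185) and -0.22 in M4/F4 (adjusted p = 0.0125). Kng1 and Kng2 are close paralogs that can cross-hybridise, so the values of each are uncertain as those of a single gene.

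Hgfac encodes the serine protease that activates hepatocyte growth factor, and Habp2 encodes a protease that can activate factor VII. Hgfac gave -0.42 and -0.59 in M8/F8 (mean -0.50 ± 0.09, adjusted p = 0.00962), and Habp2 gave -0.21 and -0.41 (mean -0.31, adjusted p = 0.00237). Habp2 was also lower at 4 wk (-0.19 and -0.29, mean -0.24, adjusted p = 0.00628), whereas Hgfac had 0.07 and -0.33. In M3/F3 the means were 0.06 for Hgfac and -0.06 for Habp2.

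Of the vitamin K dependent factors, F2, F7 and F9 passed as lower in male liver at 8 wk. F2 had a mean of -0.39 (adjusted p = 0.0164), but its arrays gave 0.00 and -0.79. F7 gave -0.25 and -0.52 (mean -0.38, adjusted p = 0.0137), and F9 gave -0.22 and -0.19 (mean -0.21, adjusted p = 0.00842). F10 gave a mean of -0.22 that did not pass, while its second probe gave -0.34 and -0.28 (mean -0.31, adjusted p = 0.0205) and passed. At 4 wk F2 and F9 had passed with means of -0.31 and -0.17. Ggcx had a mean of -0.24 at 8 wk (adjusted p = 0.0411) and of 0.03 at 4 wk.

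The remaining members that were lower in M8/F8 came from the other roles. Serpinc1 gave -0.24 and -0.53 (mean -0.38, adjusted p = 0.00335), and F13b gave -0.35 and -0.27 (mean -0.31, adjusted p = 0.00307). Plg gave -0.29 and -0.37 (mean -0.33, adjusted p = 0.0304), after -0.32 and -0.39 at 4 wk. Pros1, F5 and Tfpi had smaller means of -0.27, -0.19 and -0.19. The second probes of F5 (-0.12, adjusted p = 0.649) and Tfpi (-0.05, adjusted p = 0.856) did not pass, and neither gene passed with the mean over all probes. Among the 14 lower members, 13 were below 0 on both arrays, with F2 as the exception. At 4 wk the 9 lower members were F11, Kng1, Kng2, F2, F9, F5, Vwf, Plg and Habp2, of which 8 were below 0 on both arrays. The second F5 probe did not pass at 4 wk (-0.17, adjusted p = 0.421), nor did F5 with the mean over all probes. No brightest probe passed as higher in male liver at either age, and the highest of their means at 8 wk was that of Plat, at 0.31 (adjusted p = 0.28). The second F8 probe did pass as higher at 8 wk (0.40 and 0.48, mean 0.44, adjusted p = 0.0492), where the first gave 0.18, and so did F8 with the mean over all probes.

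**Figure D4:**
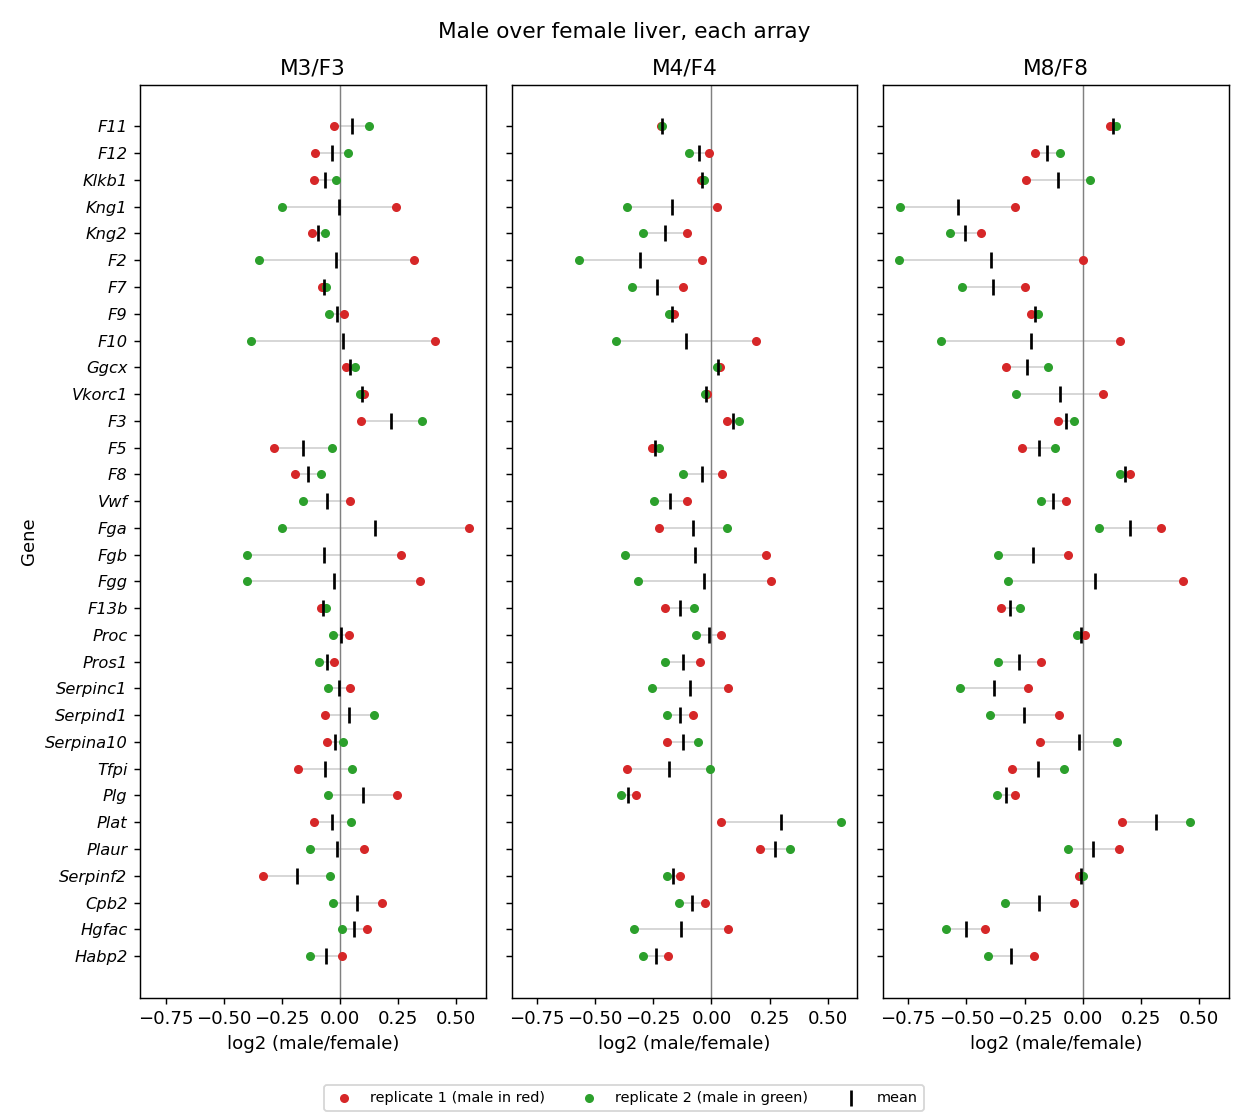
Log2 ratio of male over female liver (horizontal axis) for the 32 tested genes (vertical axis) at 3, 4 and 8 wk (panels), with each array as a point and the mean as a black tick. Replicate 1 had male RNA in red and replicate 2 in green. Both points lie below 0 for 8 genes at 3 wk and for 19 genes at 4 wk and at 8 wk.

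Some markers of hepatocytes and other cells also passed as lower in male liver. Of the 10 hepatocyte markers, 6 passed as lower and 0 as higher in M8/F8 (median -0.39, range -0.79 to 0.40), among them Alb (-0.57), Ahsg (-0.79) and Cps1 (-0.52), while Ttr had 0.01. In M4/F4 5 passed as lower (median -0.19), and in M3/F3 none passed (median -0.04). Neutrophil and myeloid markers passed as lower mainly at the younger ages, where 5 of 8 passed in M3/F3 (median -0.73) and 3 of 7 passed in M4/F4 (median -0.56), and 1 of 5 passed in M8/F8 (median -0.31). All 7 macrophage markers passed as lower in M8/F8 (median -0.59, range -1.05 to -0.54) and 1 in M4/F4. The part of these shifts in the lower ratios of the coagulation genes was not tested.

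The size of these counts depended on the model. Fitting the 6 groups instead of the comparisons made 13 members lower at 4 wk and 18 at 8 wk, against 10.1% and 21.0% of all genes in that fit, while F11 and F8 passed as higher at 8 wk. In that fit 3 members passed at 3 wk, with F3 higher and F5 and Serpinf2 lower in male liver (4.76% and 5.86% of all genes). Without the dye term, 1 member was lower at 4 wk and 7 at 8 wk (2.81% and 8.70% of all genes). The array with the first group in red was higher than its dye swap in all 7 comparisons for Kng1, F2, F10, Fgb, Fgg, Serpinc1 and Habp2, by a median of 0.77 for F10 and 0.64 for F2. It was lower in all 7 for Tfpi, Klkb1, F3, F5, F11 and F13b, with medians of -0.35 for Tfpi and -0.22 for F3. With p-values adjusted within each comparison, 1 member was lower at 4 wk and 13 at 8 wk (1.45% and 11.1% of all genes). Leaving out either array of M4/F4 left 2 lower members at 4 wk and leaving out replicate 2 of F8/F3 left 5, and leaving out replicate 1 or replicate 2 of M8/F8 left 8 or 6 at 8 wk. In all 14 fits that left out 1 array, 5 members stayed lower in M8/F8, namely F13b, Habp2, Kng1, Kng2 and Serpinc1. At 4 wk 0 members stayed lower in all 14. The 2 left without replicate 1 of M4/F4 were F11 and F5, and the 2 left without replicate 2 were Habp2 and Kng1. With the replicate block through shared pools, 6 members were lower at 4 wk, without Kng1, Kng2 and Vwf, and 13 at 8 wk, without Tfpi (4.05% and 10.9% of all genes).

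Whether the change with age differed between the sexes was tested as the male minus the female age ratio. For 3 to 8 wk, 0 members were more positive and 1 more negative in male liver with the fold threshold, against 1.63% and 1.73% of all genes. By the adjusted p alone there were 0 and 4, against 3.29% and 3.23%. The second probe of F8 was called more positive in male liver (0.80, adjusted p = 0.0471), where the first gave 0.32 and was not called. With 6 group means, 2 members were more positive and 15 more negative by the adjusted p alone for 3 to 8 wk, and 1 and 6 for 4 to 8 wk. In that fit 16.2% and 15.4% of all genes passed for 3 to 8 wk, and 9.01% and 9.21% for 4 to 8 wk. For 4 to 8 wk 0 members were called in either direction (background 0.752% and 0.587%), and by the adjusted p alone there was 1 in each direction (background 1.10% and 1.01%). In limma without adjustment, 7 members had p below 0.05 for 4 to 8 wk (17.6% of all genes).

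Hgfac was the member called. Its age ratios were -0.37 and -0.22 in M8/M3 (mean -0.30) and 0.25 and 0.39 in F8/F3 (mean 0.32), so that both male arrays were below 0 and both female arrays above 0. The difference was -0.62 on the arrays of replicate 1 and -0.61 on those of replicate 2 (mean -0.62, adjusted p = 0.0407). From 4 to 8 wk Hgfac rose in female liver (0.46 and 0.26, mean 0.36, adjusted p = 0.0346) and had 0.01 in male liver, and the male minus female difference did not pass. The female rise was lost without the dye term. It was also lost when any array other than those of M4/F4 and replicate 2 of F8/F4 was left out. The arrays of M8/M3 and F8/F3 were scanned on different days. The same difference read on the sex arrays, which were scanned on one day, was -0.57 (adjusted p = 0.0516), and with the slide as a block the adjusted p was 0.0608. The call was therefore at the edge of the threshold.

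Kng1, Kng2 and Habp2 passed without the fold threshold. Kng2 fell in M8/M3 (-0.35 and -0.14, mean -0.25, adjusted p = 0.0196) and rose in F8/F3 (0.12 and 0.36, mean 0.24, adjusted p = 0.0204), a difference of -0.49 (adjusted p = 0.0161). Kng1 had a difference of -0.45 (adjusted p = 0.00865), which was -0.50 and -0.41 on the 2 replicates, although its arrays within M8/M3 gave -0.49 and 0.11. The 2 Kng1 probes passed in opposite directions in M8/M3, the first as lower (-0.19, adjusted p = 0.0177) and the second as higher (0.19, adjusted p = 0.0217). In M8/M4 the first passed as lower (-0.22, adjusted p = 0.0101), while the second gave 0.14 and did not pass (adjusted p = 0.0616). The falls counted for Kng1 thus rest on 1 probe. In F8/F4 the second probe passed as higher (0.23, adjusted p = 0.00999), while the first gave 0.10 and did not pass. For 3 to 8 wk the sex difference of the second probe was -0.18 and did not pass (adjusted p = 0.145). Habp2 fell in M8/M3 (-0.46 and -0.30, mean -0.38, adjusted p = 0.00113) and had -0.11 in F8/F3, a difference of -0.27 (adjusted p = 0.038). From 4 to 8 wk Habp2 passed as lower in both sexes, with means of -0.27 in male (adjusted p = 0.00426) and -0.15 in female liver (-0.30 and -0.01, adjusted p = 0.0332). Kng1 was the only member that passed as more negative in male liver from 4 to 8 wk as well (-0.32, adjusted p = 0.0442). This was not seen with its second probe (-0.09, adjusted p = 0.559), without the dye term, with either replicate block, with the slide as a block, with normexp and loess, or when an array of any comparison other than M8/M3 was left out. For 3 to 8 wk, the difference of Kng2 no longer passed with the replicate block through shared pools. The fall of Kng2 in M8/M3 and its rise in F8/F3 were lost with that block and without the dye term. The difference of Habp2 did not pass with the slide as a block, with normexp and loess or with adjustment within each comparison. No member passed in the difference without the dye term. Leaving out 1 array in turn left 1 to 4 members, and 0 were present in all 14 fits. Kng1 was absent in the fit without replicate 2 of F8/F3 alone.

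RefSeq promoter windows (build GRCm38.p6, 250 bases before to 50 bases after the start of the gene) were available for 26 of the 33 genes. The windows of Hgfac, Kng2 and Habp2 are shown because the male minus female difference for 3 to 8 wk passed for these genes, with the losses given above. Kng1, which also passed, had no window. Each is written 5′ to 3′ on the strand of the gene, and capitals mark matches to the searched motifs.

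Hgfac, chr5:35041259-35041558, plus strand: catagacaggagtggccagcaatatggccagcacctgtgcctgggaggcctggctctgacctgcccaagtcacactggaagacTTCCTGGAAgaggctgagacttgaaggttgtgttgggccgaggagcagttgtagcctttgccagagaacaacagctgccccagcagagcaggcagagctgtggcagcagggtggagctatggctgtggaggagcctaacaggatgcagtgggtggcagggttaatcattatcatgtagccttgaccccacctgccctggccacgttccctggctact
Kng2, chr16:23029052-23029351, minus strand: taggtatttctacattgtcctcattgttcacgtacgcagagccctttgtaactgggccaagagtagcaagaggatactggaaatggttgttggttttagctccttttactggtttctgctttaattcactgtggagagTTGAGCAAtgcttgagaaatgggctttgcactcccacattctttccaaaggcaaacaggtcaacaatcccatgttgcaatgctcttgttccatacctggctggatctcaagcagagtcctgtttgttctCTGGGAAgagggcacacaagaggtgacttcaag
Habp2, chr19:56287662-56287961, plus strand: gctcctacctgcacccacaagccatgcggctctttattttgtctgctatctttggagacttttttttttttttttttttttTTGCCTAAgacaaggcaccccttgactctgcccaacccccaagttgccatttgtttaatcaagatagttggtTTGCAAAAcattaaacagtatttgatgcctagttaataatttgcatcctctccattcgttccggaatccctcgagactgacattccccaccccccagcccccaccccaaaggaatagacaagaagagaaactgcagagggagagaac

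The motifs were searched on both strands and are descriptions of letters, not of binding. TTGCNNAA, a C/EBP motif, was found in Kng2 and at 2 positions in Habp2, and in 10.8% of all promoter windows. TTCNNNGAA, the STAT motif, was found in Hgfac and in 8.3% of all windows, and CTGGGAA, the letters of an IL-6 response element, in Kng2 and in 11.1%. No 2 matches overlapped in these 3 windows. TATAAA (13.6% of all windows) and CAAAGTCC, an HNF4 motif (1.42%), were not found in these windows, and no motif was common to all 3. Over the 26 members with a window, TTGCNNAA was present in 11, TTCNNNGAA in 5, CTGGGAA in 5, TATAAA in 3 and CAAAGTCC in 0. In F9 the matches to TTCNNNGAA and CTGGGAA overlapped.

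The same fit was read for 48 other genes of the coagulation, protease inhibitor and fibrinolysis pathways, of which 37 to 42 were tested in a comparison. At 8 wk 4 of 40 were called higher and 3 lower in male than in female liver (all genes 2.66% and 3.74%), at 4 wk 1 of 37 in each direction (0.619% and 0.971%), and at 3 wk 1 higher (0.180%). With age, 3 of 42 were called higher and 5 lower in M8/M3 (7.82% and 10.1%) and 1 and 2 of 42 in M8/M4 (4.47% and 6.42%). The female counts were 2 and 3 of 42 for F8/F3 (5.07% and 6.68%) and 1 and 0 of 42 for F8/F4 (2.29% and 3.74%). With so few calls, these counts are given as a description. Serpine2, a thrombin inhibitor of the cell surface, was higher in adult male liver (2.35 and 2.01 in M8/F8, mean 2.18 ± 0.46, adjusted p = 0.0224) and rose in M8/M4 (3.70 and 1.97, mean 2.83, adjusted p = 0.00826), where M4 was well above background on 1 of 2 arrays. Fgl1, a secreted protein with a fibrinogen-like domain, was lower in adult male liver (-2.06 and -1.92 in M8/F8, mean -1.98, adjusted p = 0.000364). It was already lower in M4/F4, at -0.60, and fell in M8/M3 by 1.29.

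A2m, the alpha 2-macroglobulin gene, fell in both sexes, with -2.31 and -1.95 in M8/M3 (adjusted p = 0.0146) and -2.91 and -2.29 in F8/F3 (adjusted p = 0.0068). F13a1, the catalytic subunit of factor XIII, fell in F8/F3 (-2.18 and -1.07, mean -1.62, adjusted p = 0.0346). F2r, the thrombin receptor gene, was higher in adult male liver (1.03 and 1.44, mean 1.23, adjusted p = 0.00837). Nqo1, a quinone reductase, was lower there (mean -0.99, adjusted p = 0.00465) and fell in M8/M3 by 1.19. Anxa2, which binds plasminogen at the cell surface, fell in M8/M3 (mean -1.04) and F8/F3 (mean -0.92). Gas6, a vitamin K dependent ligand, rose in F8/F3 (0.80 and 0.91, mean 0.86, adjusted p = 0.00045) and was lower in adult male liver (mean -0.75).

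Among 9 liver transcription factors and signalling genes examined as regulators, Cebpb and Il6ra were called. Cebpb rose in M8/M3 (1.05 and 1.19, mean 1.12, adjusted p = 0.00455) and M8/M4 (mean 0.77) and was lower in M3/F3 (mean -0.60). Il6ra, the IL-6 receptor gene, was lower in M4/F4 (-0.61 and -1.17, mean -0.89, adjusted p = 0.02). Hnf4a had 0.03 in M8/F8, and Cebpa, Foxa1, Foxa2, Onecut1, Nr1h4 and Stat3 were called in no comparison. None of these 9 genes was called in M8/F8.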

How the data were processed

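Arrays were scanned and processed by the authors with Feature Extraction 10.7.1.1, per the file headers, with linear and LOWESS dye normalization. The deposited log10 ratio of red over green was expressed as log2 with the male or the 8 wk group in the numerator, and the deposited red and green intensity values were used to choose the brightest probe and in an alternative. Control spots and non-uniform spots (0 to 10 an array) were left out, and spots of a probe were averaged. Names were assigned through RefSeq accessions for 26049 of 39429 probes, and 43 probes belonged to the 33 genes, which were all described. Of the other pathway genes, the 8 with the largest called ratio were named, and 1 regulator and 1 motif are not reported here. Values came from R 4.3.3 with limma 3.58.1, in a model with 7 comparisons and 1 dye term, and p-values were adjusted over all probes and the 7 comparisons together, or within each contrast of comparisons. Genes were tested where both arrays of at least 1 group were well above background. The test was checked on simulated data. The error-weighted average, which weights the arrays by their error as the study did, used the deposited log10 errors, a p of 1e-04 and, for calls, the same fold threshold. Unlike the error model of the study, it had no part estimated from the replicate arrays. Replicates of a number came from the same pools in the study's design, and deviations of direct and implied ratios correlated at 0.882 (3 wk) and 0.878 (4 wk) over 21650 probes. Alternatives were the dye term, a model of 6 group means, blocks, normalization, filters, adjustment, probes and leaving out each array, and 1 alternative, a fit on bright probes only, was chosen after seeing the data. The members and lists were chosen with earlier results of these data known.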

Additional observations from a re-analysis of the deposited data

Results flagged for a closer look

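The change of Hgfac from 3 to 8 wk differed between the sexes by a test of the difference itself, with a male minus female log2 difference of -0.62 (adjusted p = 0.0407, limma). Both male arrays were below 0 and both female arrays above 0.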

How the results depend on the processing

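Each comparison rested on 2 arrays, with pool and dye exchanged together, and weaker probes carry larger errors. No called value changed sign under any alternative tried. F3 stayed called in F8/F3 and F8/F4 under all of them. F3 in M8/M4 was no longer called with normexp and loess (0.56) or without replicate 1 of M8/M4 (0.53), and Tfpi in M8/M3 with normexp and loess (-0.58). The count for M8/M3 minus F8/F3, 1 in the report, was 0 without the dye term, with the replicate block through shared pools, with the slide as a block, with the adjustment within each comparison and on the sex arrays, and 3 with normexp and loess. The adjusted p of Hgfac was 0.0685, 0.0523, 0.0608, 0.0714 and 0.0516 in the first 5 of these. With normexp and loess, M8/M3 and M8/M4 had 0 called members and F8/F3 had 2. Without the fold threshold the counts were 9 and 14 between the sexes at 4 and 8 wk, 13 in M8/M3 and 12 in M8/M4, 11 and 8 in the female age comparisons, and 4 and 2 for the sex difference of the age change. With the mean over all probes of a gene, calls with the fold threshold were 3 in M8/M3, 2 in F8/F3 and 2 in F8/F4. Leaving out 1 array in turn gave 0 to 1 in M8/M4 (0 without its replicate 1), 1 to 2 in F8/F3 (2 without either of its arrays) and 0 to 1 in M8/M3 minus F8/F3. Hgfac was called in 4 of these 14 fits, those without an array of M4/F4 or F8/F4, and the 1 call without replicate 2 of F8/F3 was Plg. A simple replicate block changed no count of calls, with 1 call in each of the 4 age comparisons and in M8/M3 minus F8/F3.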
